A study of Mus musculus with 15 samples.

Results

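Tubulins and the proteins that bind microtubules were examined here as a set of 10 mouse genes: the beta tubulins Tubb2a, Tubb2b, Tubb3, Tubb4a, Tubb5 and Tubb6, the alpha tubulin Tuba1a, the microtubule-associated proteins Mapt (tau) and Map2, and the tubulin-binding protein stathmin, Stmn1. They were taken by name, as every probe whose RefSeq transcript belonged to one of these genes. This gave 16 of 41174 probes and 10 of 17158 named genes on the array. The 10 genes were each well above background on all 15 arrays, so the filter on dim probes removed none of them, and no spot of the 15 probes kept for the fit was saturated.

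Expression was measured with 1 one-colour Agilent array per sample in 12 medulloblastomas, tumours of the cerebellum, and 3 normal cerebella. The tumours, labelled MB1 to MB12, arose in Ptch1+/- mice of C3B6F1 background, in which 1 copy of the receptor that restrains sonic hedgehog signalling is inactive in every cell. R-type tumours came from mice given 0.2 Gy (MB7 to MB9) or 1.5 Gy (MB10 to MB12) of X-rays on postnatal day 1, and S-type tumours from mice given 0 Gy (MB1 to MB3) or 0.2 Gy (MB4 to MB6), with n = 3 in each group. The reference tissue was normal cerebellum of unirradiated mice (n = 3), for which the labels used here give neither strain nor genotype. The labels do not say what S and R stand for. Age at sampling, for which the labels state no unit, lay between 87 and 127 in the R-type group, between 128 and 173 in the S-type group and between 103 and 113 in the normal group. No R-type tumour was unirradiated and no S-type tumour had received 1.5 Gy, so type cannot be told apart from age, and only at 0.2 Gy can it be compared at the same dose. All mice were labelled female except the one with MB6, which was male.

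Microtubules are hollow polymers of alpha and beta tubulin dimers. They form the mitotic spindle of dividing cells and the tracks along which axons and dendrites are built and supplied. Each vertebrate carries several genes for either subunit, the isotypes, whose products copolymerise but differ in their tails and in the tissues that use them. Tau and MAP2 bind along the polymer and stabilise it, tau mainly in axons and MAP2 mainly in dendrites, while stathmin sequesters free dimers and promotes disassembly. In the developing cerebellum, granule neuron precursors divide at the surface under sonic hedgehog, then leave the cycle and grow axons, so both uses of the microtubule occur in the same lineage, which is also the lineage of origin of this class of medulloblastoma.

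The promoters available for genes higher in tumours on their brightest probe are shown with that of Map2, which did not pass the test. This lets their start regions be compared. RefSeq promoter sequences on GRCm38.p6 were available for 6 of the 10 genes, and not for Tubb2b, Tubb6, Mapt and Stmn1. The 150 bases before each annotated start are printed 5′ to 3′ in the direction of transcription, with capitals on matches to 5 motifs searched on both strands. The first was CCAAT, a promoter box bound by NF-Y. The second was TATAA, the core of the TATA box. The third was GGGCGG, the GC box bound by SP factors. The fourth was CACGTG, an E-box. The last was TGGGTGGTC, the core of a GLI site. The motifs were chosen by textbook role.
Tubb2a, chr13:34078009-34078158, minus strand: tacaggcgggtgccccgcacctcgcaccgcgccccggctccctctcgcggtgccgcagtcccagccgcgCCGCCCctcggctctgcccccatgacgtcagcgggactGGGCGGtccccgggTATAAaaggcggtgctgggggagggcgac
Tubb3, chr8:123411403-123411552, plus strand: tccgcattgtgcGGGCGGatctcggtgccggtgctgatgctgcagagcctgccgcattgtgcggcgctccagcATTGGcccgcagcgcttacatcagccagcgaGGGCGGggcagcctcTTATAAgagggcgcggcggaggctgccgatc
Tubb4a, chr17:57087601-57087750, minus strand: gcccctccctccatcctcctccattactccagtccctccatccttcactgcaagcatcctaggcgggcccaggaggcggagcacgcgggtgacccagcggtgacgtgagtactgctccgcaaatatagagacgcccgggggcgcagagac
Tubb5, chr17:35838302-35838451, minus strand: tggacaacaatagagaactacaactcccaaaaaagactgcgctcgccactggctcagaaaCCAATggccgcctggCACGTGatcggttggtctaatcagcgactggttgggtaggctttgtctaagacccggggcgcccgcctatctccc
Tuba1a, chr15:98953502-98953651, minus strand: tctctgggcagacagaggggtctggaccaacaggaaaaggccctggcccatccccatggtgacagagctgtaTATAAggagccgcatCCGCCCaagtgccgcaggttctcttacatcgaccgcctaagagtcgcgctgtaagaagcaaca
Map2, chr1:66175179-66175328, plus strand: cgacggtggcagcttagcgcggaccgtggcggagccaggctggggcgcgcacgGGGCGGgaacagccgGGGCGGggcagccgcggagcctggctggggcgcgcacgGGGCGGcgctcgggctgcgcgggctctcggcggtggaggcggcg
The Tubb3, Tubb2a and Tuba1a windows each held TATAA, beginning 30, 29 and 78 bases before the start, and each held at least 1 GC box. The reverse TTATA of Tubb3 overlaps its TATAA. Tubb5 had CCAAT at 90 bases and CACGTG at 75 bases before the start, and Map2 had 3 GC boxes and no TATAA. Tubb4a had no match to the 5 motifs in this window, and the GLI core was in none of the 6. Over 32851 promoter windows of the same length, 24.5% held CCAAT, 14.2% TATAA, 28.6% the GC box, 4.3% CACGTG and 0.119% the GLI core. These matches describe letters in the window and nothing was tested on them.

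The first comparison set tumour tissue against normal cerebellum. Of the 10 genes, 8 were higher in tumours, 1 (Mapt) was lower and 1 (Map2) did not pass the test, at an adjusted p under 0.05 by limma with Benjamini-Hochberg adjustment over all 22224 tested genes. The comparison called 78.9% of all tested genes, 43.4% of them higher and 35.5% lower as shares of the genes tested, so that a changed gene is the common case here. In this and every later share, 13451 of the tested genes had a symbol, and the others were single probes without a symbol, each counted as a gene. The values of 9 of the 10 genes did not overlap between tumours and normal cerebella, as was so for 65.5% of all genes. The median log2 change of the 10 was 1.10, against 0.132 for all tested genes, and the range was -2.33 to 3.15. Levels below are on the log2 scale, with 0 at the signal that 75% of an array's probes stay under, and since each probe has its own brightness, levels are compared between samples and not between genes.

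**Figure D1:**
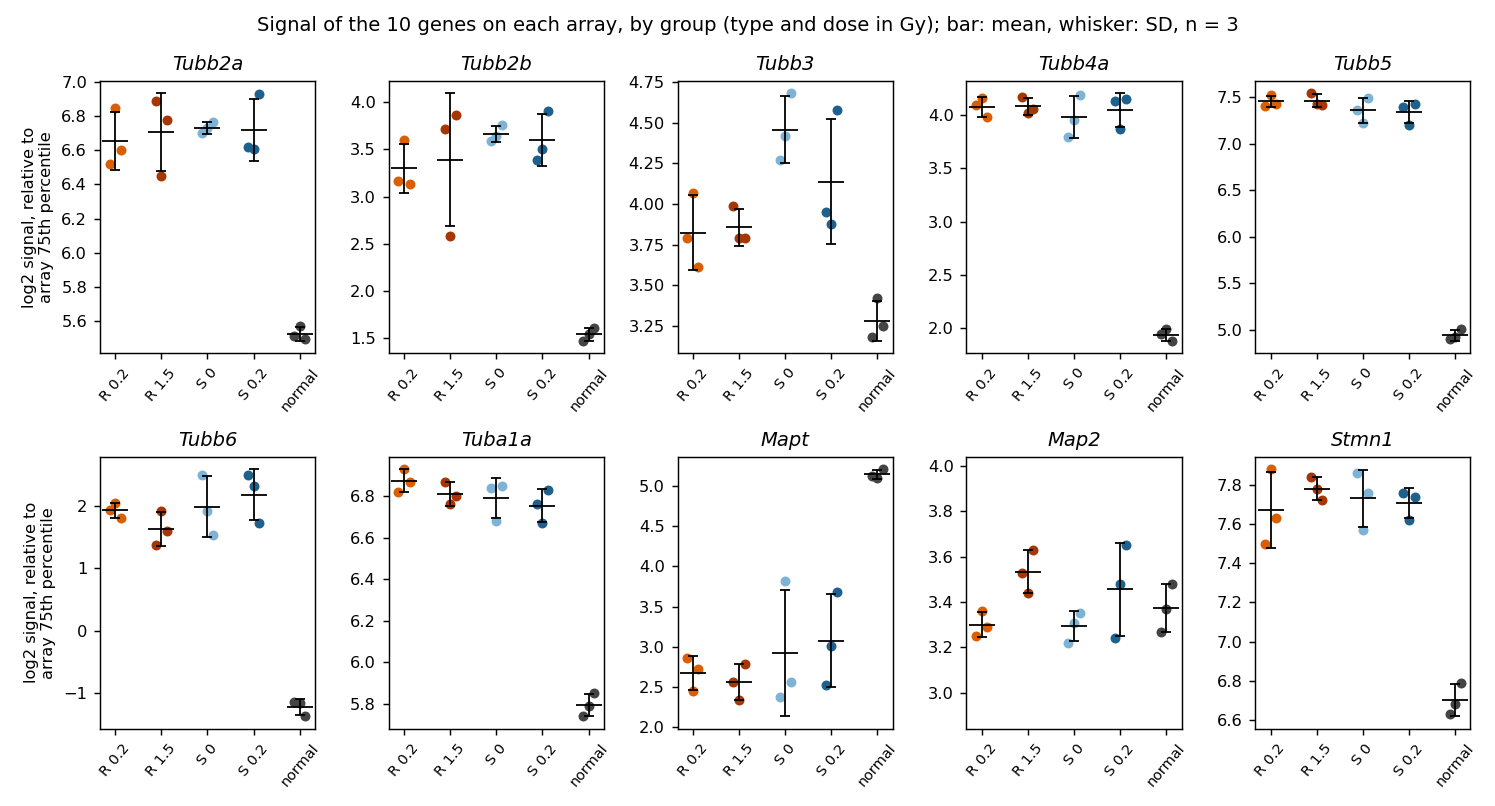
Log2 signal of the brightest probe of each of the 10 genes (y axis, with 0 at the array's 75th percentile) on every array, by group (x axis: type and dose in Gy, then normal cerebellum), with the mean as a horizontal bar and the SD as whiskers (n = 3). In 8 panels every tumour lies above every normal cerebellum, in the Mapt panel every tumour lies below, and in the Map2 panel the groups overlap; the y axes differ between panels.

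Tubb6, a divergent beta tubulin that is scarce in adult brain, had the largest change of the 10 genes. It ranged between 1.38 and 2.50 in tumours (median 1.92, n = 12), against -1.14, -1.16 and -1.37 in normal cerebella. Every tumour was above every normal cerebellum, and the lowest tumours were MB10, MB3 and MB12. The log2 change was 3.15 ± 0.195 (SE), 8.91-fold, with a limma adjusted p of 1.52e-08.

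Tubb5, the most widely used beta tubulin of dividing cells, was the steadiest of the large changes. It ranged between 7.20 and 7.54 in tumours (median 7.43), against 4.90, 4.92 and 5.01 in normal cerebella. The tumours lay within a narrow band far above the normal tissue, and the log2 change was 2.46 ± 0.0699 (SE), 5.5-fold, with a limma adjusted p of 1.82e-11. Its second probe gave 2.28, in a fit over all probes that called 79.5% of them.

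Tubb4a is best known from adult brain, where oligodendrocytes and neurons use it. Its probe nevertheless read 3.80 to 4.19 in tumours (median 4.08), against 1.94, 1.99 and 1.88 in normal cerebella. No value of one tissue came near the other. This was the only probe of the gene, and without probe sequences it could not be seen whether it also reads a paralog. Its log2 change was 2.11 ± 0.0866 (SE), 4.32-fold (limma adjusted p = 4.15e-10). Of the 9 oligodendrocyte marker genes measured, 8 fell in the same comparison and none rose, with a mean log2 level of -3.03 to -1.92 in tumours and 1.39 to 2.08 in normal cerebella; Mog and Opalin were not above background in any tumour.

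Tubb2b and Tubb2a encode nearly identical neural beta tubulins used in migrating and axon-growing neurons. Tubb2b ranged between 2.58 and 3.91 in tumours (median 3.60), against 1.47, 1.54 and 1.60 in normal cerebella, a log2 change of 1.96 ± 0.220 (SE), 3.88-fold (limma adjusted p = 3.93e-06). MB11 was the lowest tumour for Tubb2b, still above all normal cerebella. Tubb2a, on its brightest probe, ranged between 6.45 and 6.93 in tumours (median 6.71), against 5.51, 5.57 and 5.49 in normal cerebella, a log2 change of 1.18 ± 0.10 (SE), 2.27-fold (limma adjusted p = 2.81e-07).

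The 3 Tubb2a probes did not read alike. A_51_P103659 ranged between 1.01 and 2.00 in tumours and read 0.86, 0.91 and 0.81 in normal cerebella, a log2 change of 0.75 (limma adjusted p = 0.000549), the same direction as the brightest probe. A_51_P490023 was lower in tumours: 4.44, 5.35 and 4.89 in MB1 to MB3, 4.36 and 4.72 in MB4 and MB5, 4.56, 4.93 and 4.33 in MB7 to MB9, and 4.83, 3.79 and 4.84 in MB10 to MB12, against 5.46, 5.58 and 5.46 in normal cerebella. No tumour reached the lowest normal cerebellum on it. Its spot on MB6 was marked non-uniform, so that it had been left out of the gene-level fit. Fitted among all probes with MB6 missing, its log2 change was -0.87 (limma adjusted p = 0.00588). The direction for Tubb2a thus depends on the probe, and the files hold no probe sequences with which to see which transcript or paralog each one reads.

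**Figure D2:**
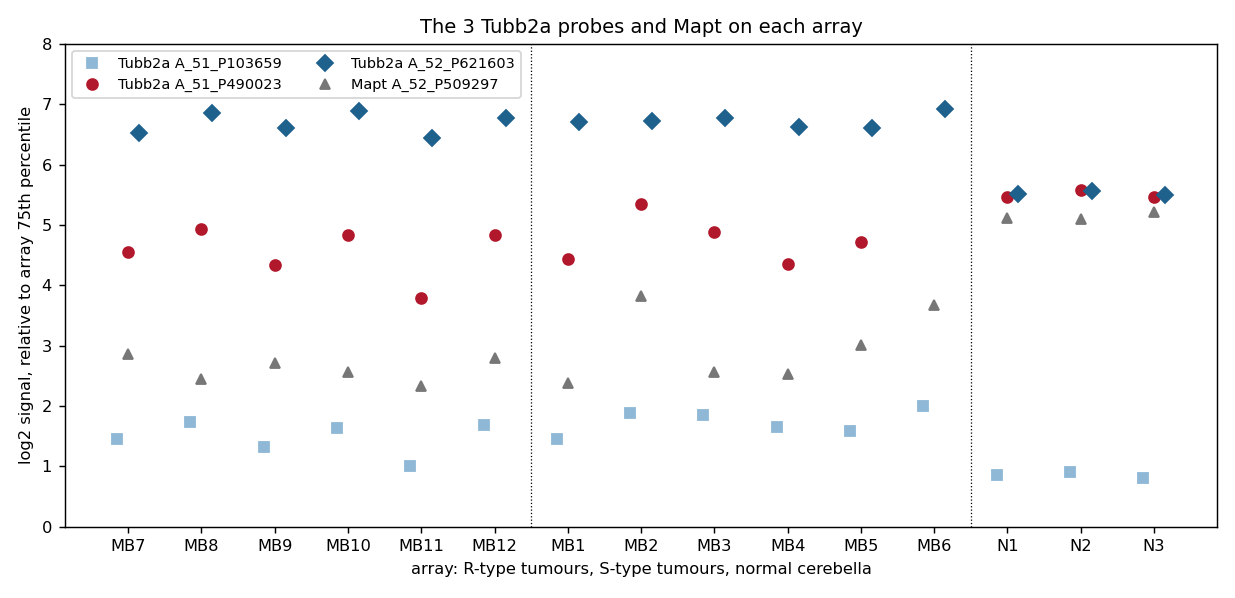
Log2 signal (y axis, with 0 at the array's 75th percentile) for the 3 Tubb2a probes and the brightest Mapt probe on each array (x axis: R-type tumours, S-type tumours, normal cerebella; 1 array per position). A_52_P621603 and A_51_P103659 are higher in every tumour than in normal cerebella, while A_51_P490023, which has no value for MB6, and Mapt are lower in every tumour.

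Tubb3 encodes class III beta tubulin, the isotype that marks newborn and mature neurons. It ranged between 3.61 and 4.68 in tumours (median 3.97), against 3.18, 3.42 and 3.25 in normal cerebella. All tumours lay above all normal cerebella, the lowest tumour, MB9, by a small margin. The log2 change of 0.78 ± 0.146 (SE), 1.72-fold, was the smallest among the 8 higher genes (limma adjusted p = 0.000313). Its probe was printed in 10 spots per array, whose SD within an array was 0.0137 to 0.0352 on the log2 scale, which is technical error within an array and not the spread between tumours.

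Tuba1a is the main alpha tubulin of developing neurons. It ranged between 6.67 and 6.93 in tumours (median 6.82), against 5.74, 5.79 and 5.85 in normal cerebella, a log2 change of 1.01 ± 0.0593 (SE), 2.01-fold (limma adjusted p = 9.47e-09). Stmn1, stathmin, which dividing and migrating cells hold at high levels, ranged between 7.50 and 7.88 in tumours (median 7.75), against 6.63, 6.68 and 6.79 in normal cerebella, a log2 change of 1.02 ± 0.0834 (SE), 2.03-fold (limma adjusted p = 2.03e-07), and its second probe gave 1.28. For both genes the tumours were uniform and well separated from normal tissue. The size of these changes among the brightest probes depended on scaling: with quantile normalization between arrays the log2 changes were 0.39 for Tuba1a, 0.45 for Stmn1 and 0.71 for Tubb2a, all still higher in tumours.

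Mapt was the only one of the 10 genes whose brightest probe fell. Tau read 2.38, 3.82 and 2.56 in MB1 to MB3, 2.53, 3.01 and 3.68 in MB4 to MB6, 2.86, 2.45 and 2.72 in MB7 to MB9 and 2.56, 2.34 and 2.79 in MB10 to MB12, against 5.12, 5.10 and 5.21 in normal cerebella. MB2 and MB6 stood highest among the tumours and MB11 lowest, and all were below normal tissue. The log2 change was -2.33 ± 0.276 (SE), so that normal cerebella were 5.04-fold higher (limma adjusted p = 6.20e-06), and the other probes gave -2.45 and -3.40.

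Map2, a dendritic protein, did not pass the test. It ranged between 3.22 and 3.65 in tumours (median 3.36), against 3.27, 3.37 and 3.48 in normal cerebella. The tissues overlapped almost fully. The log2 change was 0.02 with a 95% interval of -0.16 to 0.20 (limma adjusted p = 0.814), and its sign turned under normexp background correction, without scaling and under quantile normalization.

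**Figure D3:**
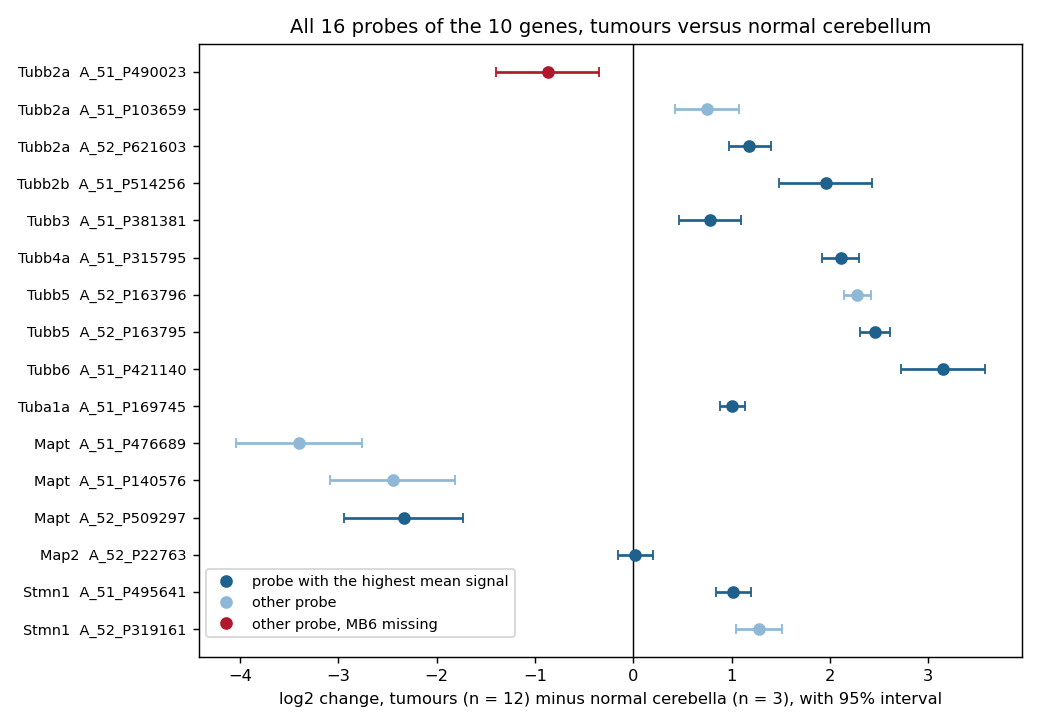
Log2 change, tumours minus normal cerebella, with its 95% interval (x axis) for each of the 16 probes (y axis), from the limma fit over all probes. The 3 Mapt probes and 1 of the 3 Tubb2a probes lie left of 0, Map2 lies on 0, and the other 11 lie right of it, between 0.75 and 3.15.

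Each of the 4 tumour groups gave the same count against the shared normal cerebella, 8 higher, 1 lower and 1 not called. Among all genes, R-type 0.2 Gy tumours had 74.0% changed (40.6% higher, 33.4% lower) and R-type 1.5 Gy tumours 74.5% (41.0% higher, 33.5% lower). S-type 0 Gy tumours had 74.1% changed (41.1% higher, 33.1% lower) and S-type 0.2 Gy tumours 73.8% (40.7% higher, 33.1% lower). Without scaling, the share of called genes that were higher was 44.3% for R-type 0.2 Gy tumours and 43.8% for R-type 1.5 Gy tumours, against 54.9% and 55.1% as reported. The 4 comparisons share their 3 control arrays, so they are not independent of each other. Within the 3 array slides that held a normal cerebellum, the log2 change was 2.82 to 3.38 for Tubb6, 2.39 to 2.56 for Tubb5, 2.13 to 2.21 for Tubb4a and 1.77 to 2.29 for Tubb2b. It was 0.59 to 1.15 for Tubb3 and -2.65 to -1.76 for Mapt. The fourth slide, with MB1, MB5 and MB9, had no normal cerebellum.

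Markers of several cell types also differed between the tissues, and fewer cells of a type cannot be told apart from less RNA per cell in bulk tissue. All 10 markers of dividing cells were called higher (mean log2 level 2.90 to 3.41 in tumours, -4.83 to -4.32 in normal cerebella). Of these, Top2a, Ccnb1, Cdk1, Aurkb, Bub1 and Kif11 were not above background in any normal cerebellum. They passed the filter on dim probes through the tumours alone, and the normal level of this list rests largely on background. Of 10 markers of granule precursors and immature neurons, 8 rose, 1 fell and 1 was not called (2.19 to 2.81 in tumours, -3.66 to -2.92 in normal cerebella). In this list Atoh1, Nhlh1, Igfbpl1 and Insm1 were not above background in any normal cerebellum. All 10 markers of mature granule neurons fell (-3.02 to 0.61 in tumours, 3.90 to 4.12 in normal cerebella), as did all 10 Purkinje cell markers (-3.49 to -1.31 in tumours, 4.41 to 4.57 in normal cerebella). Among the tumours, mature granule markers were highest in MB2, at 0.61, which also had the highest Mapt, and lowest in MB11, at -3.02, which had the lowest Mapt and Tubb2b; MB6, with the second highest Mapt, stood at -2.05. The part of these marker differences in the tubulin results was not tested.

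Because each array reads several isotypes at once, unequal change within the family could be tested within arrays. The difference Tubb5 minus Tubb4a was 3.36 ± 0.09 in tumours and 3.01 ± 0.11 in normal cerebella (SD, n = 12 and 3), a shift of 0.35. Tubb2b minus Tubb2a was -3.22 ± 0.26 in tumours and -3.99 ± 0.08 in normal cerebella, a shift of 0.77. Both shifts had a two-sided exact permutation p of 0.0022, the smallest that 455 arrangements of the arrays allow, and 0.0044 adjusted over the 4 tests run. On the brightest probes Tubb5 thus rose by more than Tubb4a, and Tubb2b by more than Tubb2a. The first of these shifts was 0.26 with the mean of both Tubb5 probes (exact permutation, adjusted p = 0.0044), and 0.03 under quantile normalization (exact permutation, adjusted p = 0.697). Between R-type and S-type tumours, Tubb5 minus Tubb4a was 3.38 ± 0.05 and 3.33 ± 0.12 (exact permutation, adjusted p = 0.437), and Tubb2b minus Tubb2a was -3.34 ± 0.32 and -3.10 ± 0.08 (exact permutation, adjusted p = 0.133; SD, n = 6 each). Neither of these 2 results was firm. Quantile normalization gave -0.15 for the first (exact permutation, adjusted p = 0.013). Without MB1 the first difference was 0.09 (exact permutation, adjusted p = 0.00866), and without MB12 the second was -0.32 (exact permutation, adjusted p = 0.00577).

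The second comparison was between tumour types. Tubb3 alone among the 10 genes passed, lower in R-type tumours, where 20.9% of all tested genes were called, 10.7% higher and 10.1% lower. That even split depended on scaling, since 51.4% of the called genes were higher as reported, 8.9% without scaling between arrays and 67.3% with normexp background correction. The other 9 genes had log2 changes of -0.38 to 0.11, and no gene's values were separated between the types, as they were for 9.34% of all genes. Tubb3 read 3.79, 4.07 and 3.61 in R-type tumours of 0.2 Gy and 3.99, 3.79 and 3.79 in those of 1.5 Gy, against 4.27, 4.42 and 4.68 in S-type tumours of 0 Gy and 3.95, 3.88 and 4.58 in those of 0.2 Gy. The unirradiated S-type tumours and MB6 were above every R-type tumour, while MB4 and MB5 lay among them. The log2 change was -0.46 ± 0.130 (SE), with R-type at 0.729 of S-type (limma adjusted p = 0.0288).

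This Tubb3 call was not firm. It was lost under median scaling (limma adjusted p = 0.0933), with no filter on dim probes (0.05 after rounding, just above the threshold), in a fit of the compared groups only (0.0545), and on leaving out MB3, MB7, MB9, MB11 or MB12 (0.0519 to 0.0740). The direction held within each of the 4 slides, at -0.74 to -0.16. At 0.2 Gy, the dose both types share, the Tubb3 log2 change was -0.31 with a 95% interval of -0.72 to 0.09 (limma adjusted p = 0.347), and -0.091 without MB6. None of the 10 genes passed at that dose, where 4.77% of all genes did, and their log2 changes were -0.40 to 0.12.

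**Figure D4:**
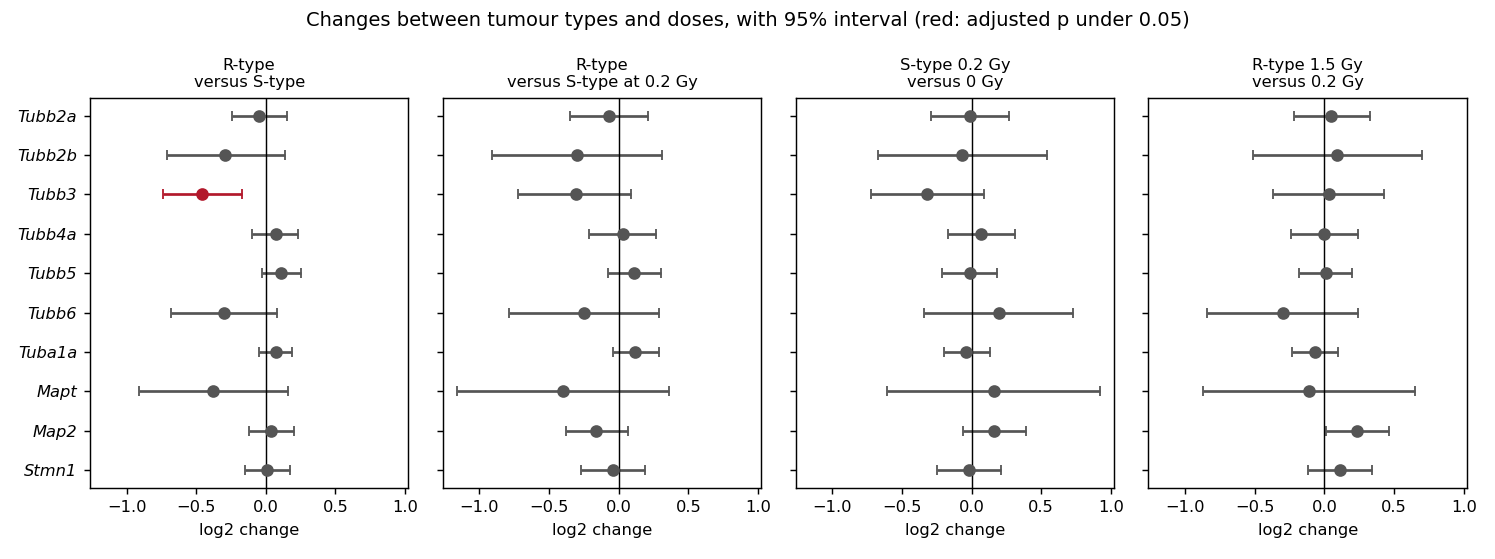
Log2 change with its 95% interval (x axis) of each of the 10 genes (y axis) for R-type minus S-type tumours over both doses, R-type minus S-type at 0.2 Gy, S-type 0.2 Gy minus 0 Gy and R-type 1.5 Gy minus 0.2 Gy. Only Tubb3 in the first panel, at -0.46, passed the test (red).

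For the other genes the type difference did not pass the test. Mapt averaged 2.62 ± 0.20 in R-type and 3.00 ± 0.62 in S-type tumours (SD, n = 6 each), with a 95% interval of the difference of -0.91 to 0.16, and within slides its difference ran between -1.19 and 0.30. Tubb6 averaged 1.78 ± 0.25 in R-type and 2.08 ± 0.42 in S-type tumours, with an interval of -0.68 to 0.08. Without scaling between arrays, which moved the median of all genes by -0.22, Tubb6 was called at -0.52 (limma adjusted p = 0.0222). Tubb2b averaged 3.35 ± 0.48 and 3.63 ± 0.19 in R-type and S-type tumours, with an interval of -0.71 to 0.14. Intervals were narrow for Tuba1a, -0.05 to 0.19, Tubb5, -0.03 to 0.25, and Stmn1, -0.15 to 0.17. Their direction depended on scaling: without scaling between arrays, Tubb4a, Tubb5, Tuba1a, Map2 and Stmn1 turned lower in R-type tumours, Stmn1 by a called -0.21 (limma adjusted p = 0.0379), and under quantile normalization Stmn1 was again -0.21 (limma adjusted p = 0.0107).

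Dose was compared within each type, where it cannot be told apart from age. Ages were 160, 173 and 172 in S-type tumours of 0 Gy and 128, 133 and 135 in those of 0.2 Gy. They were 127, 106 and 113 in R-type tumours of 0.2 Gy and 87, 101 and 103 in those of 1.5 Gy. None of the 10 genes differed between S-type tumours of 0.2 Gy and 0 Gy, where 0.0045% of all genes passed (1 gene by limma, with 1282 at an unadjusted p under 0.05). None passed between R-type tumours of 1.5 Gy and 0.2 Gy, where 0.0675% did (15 genes by limma, with 1569 at an unadjusted p under 0.05). Map2 was the single gene without overlap, at 3.53, 3.44 and 3.63 in R-type tumours of 1.5 Gy against 3.25, 3.36 and 3.29 in those of 0.2 Gy. All 3 tumours of the higher dose were above the others, a separation that 11.8% of all genes showed, and the log2 change of 0.23 had a limma adjusted p of 0.696. Tubb3 in S-type tumours was -0.32 at 0.2 Gy relative to 0 Gy, with a 95% interval of -0.72 to 0.09 (limma adjusted p = 0.926).

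Set in order of level, Tubb3 averaged 4.46 ± 0.21 in S-type 0 Gy, 4.14 ± 0.39 in S-type 0.2 Gy, 3.86 ± 0.12 in R-type 1.5 Gy, 3.83 ± 0.23 in R-type 0.2 Gy and 3.28 ± 0.12 in normal cerebella (SD, n = 3). Neighbouring tumour groups overlapped in this order, and each tumour group was above normal cerebellum, the nearest being R-type 0.2 Gy with a log2 change of 0.54 (limma adjusted p = 0.0186). Mapt averaged 2.56 ± 0.22 in R-type 1.5 Gy, 2.68 ± 0.21 in R-type 0.2 Gy, 2.92 ± 0.78 in S-type 0 Gy, 3.07 ± 0.58 in S-type 0.2 Gy and 5.14 ± 0.06 in normal cerebella. The SD of the S-type groups exceeded the distance between any of the tumour means. For Tubb2a, Tubb4a, Tubb5, Tuba1a and Stmn1 the 4 tumour group means differed by at most 0.12 on the log2 scale on the brightest probe. Other probes spread wider, by 0.29 and 0.40 for Tubb2a and 0.23 for Stmn1.

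Other tubulin genes followed several patterns. Of 9 measured, 6 were higher in tumours, 2 lower and 1 not called, with a median log2 change of 0.82, where 43.4% of all genes were higher and 35.5% lower. Tuba3a, which has a nearly identical copy, Tuba3b, was higher by 1.24 on its brightest probe and lower, at -5.24, on its other probe, so that its direction is uncertain. Tube1, epsilon tubulin, a centriole component, was higher by 1.04 (limma adjusted p = 5.62e-08). Tubg2, the gamma tubulin of the brain, was lower by a log2 change of -2.82 (limma adjusted p = 1.26e-08). Tuba8, an alpha tubulin, averaged 1.54 ± 0.10 in normal cerebella and was not well above background in any tumour. It therefore passed the filter on dim probes, and entered the count of lower genes, through the normal cerebella alone. With the processed signals the fit put Tuba8 305-fold lower in tumours, a size that rests on tumour signals near background. That size holds for this processing only, since normexp background correction gave a log2 change of -5.60.

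Among 24 other structural microtubule-associated proteins, 7 were higher in tumours, 14 lower and 3 not called (median -0.88). Of the higher genes, Map7d3 was not above background in any normal cerebellum and passed the filter on dim probes through the tumours alone. Dcx, doublecortin, which stabilises microtubules in migrating neurons, averaged 3.17 ± 0.22 in tumours and -3.57 ± 0.10 in normal cerebella (SD, n = 12 and 3), a 106-fold difference (limma adjusted p = 1.15e-12). With the mean of all its probes the log2 change of Dcx was 4.95 in place of 6.73. Mapre1, which encodes the plus-end protein EB1, was 3.05-fold higher (limma adjusted p = 3.03e-10). Map4 changed by -1.88 (limma adjusted p = 8.19e-11) and Map7d2 by -2.62 (limma adjusted p = 9.62e-11) on the log2 scale. The other Map4 probe gave a smaller change, -0.82. The other stathmins, of the neuronal branch, did not follow Stmn1: none of 3 rose, Stmn3 changed by -1.18 and Stmn2 by -1.90, both called, and Stmn4 by an uncalled -0.30. The share of genes called lower was 35.5% over the array.

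The machinery that folds, modifies, cuts and nucleates tubulin moved both ways. The counts that follow stand against 43.4% higher and 35.5% lower over all genes tested. Of 8 genes listed under tubulin folding, 5 were higher and 3 lower (median 0.35). Among them were Tbca at 0.78 and Ttc5 at 0.66, and Tbcel at -0.94 and Arl2 at -1.05. The other probe of Ttc5 gave 0.18. Of 15 modifying enzymes tested of 18 on the array, 8 were higher, 6 lower and 1 not called (median 0.46). The polyglutamylase Ttll4 rose 5.17-fold and Ttll12, of the same family, 2.96-fold, while the polyglutamylase Ttll5 changed by -2.12. The carboxypeptidase Agbl2 was not well above background in any tumour, so it passed the filter on dim probes through the normal cerebella alone. With the processed signals the fit put it 50.8-fold lower in tumours, a size that normexp background correction, at a log2 change of -2.79, did not keep. Of 7 severing enzymes, 4 were higher and 2 lower (median 0.92). Fignl1, related to fidgetin and also known from recombination repair, averaged 2.45 ± 0.19 in tumours and -2.94 ± 0.05 in normal cerebella, a 42.2-fold difference (limma adjusted p = 2.89e-13); the katanin subunit Katna1 changed by 1.14, spastin (Spast) by 0.92 and Katnal1 by -1.05. Of 7 genes of the gamma-tubulin ring, which nucleates microtubules at the centrosome, 6 were higher and 1 lower (median 0.53). Nedd1, which recruits the ring to the spindle, rose 8.12-fold (limma adjusted p = 1.05e-12), Tubgcp2 changed by 1.03, Tubgcp3 by 0.76 and Mzt2 by 0.50. Of 9 kinases and activators that phosphorylate tau, 2 were higher, 5 lower and 2 not called (median -0.16), with changes within -0.65 and 0.52; Gsk3a, Mark4 and Mark1 were lower and Mark3 higher.

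**Figure D5:**
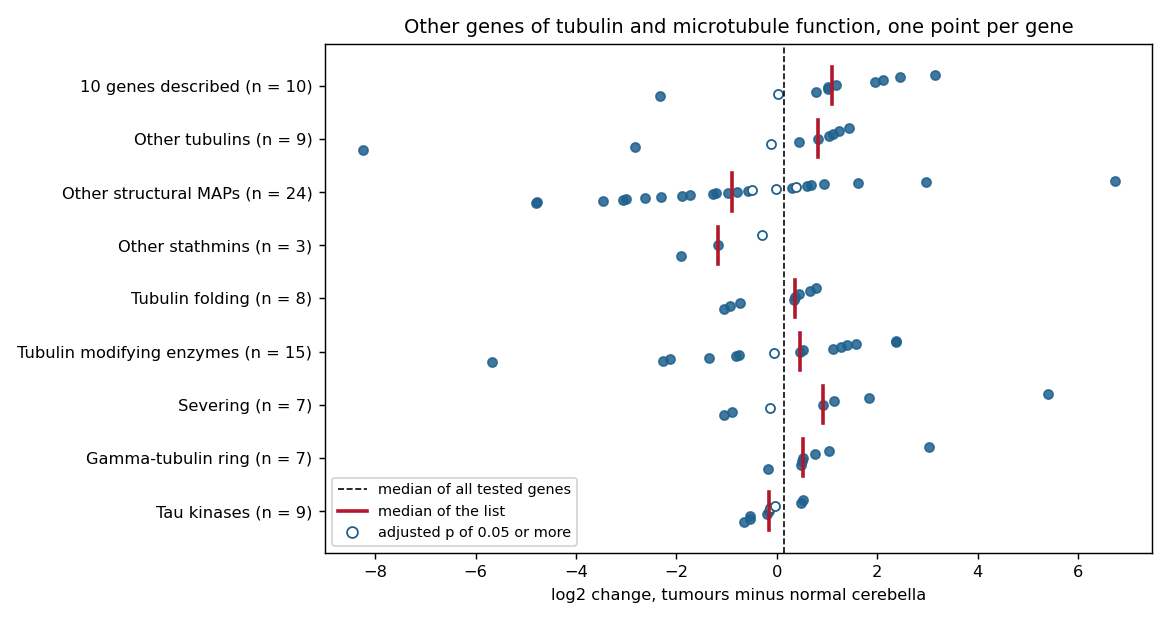
Log2 change, tumours minus normal cerebella (x axis), of the 10 genes and of the tested genes of 8 lists of tubulin and microtubule function (y axis), 1 point per gene, filled where the adjusted p was under 0.05, with the median of each list (red) and of all tested genes (dashed, 0.132). Dcx at 6.73 and Fignl1 at 5.40 lie far right; Tuba8 and Agbl2, far left, were not above background in tumours, so their fitted positions are not measured sizes.

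Between the types, these lists held 4 genes called higher in R-type tumours and 12 called lower, of 82 tested. Over all genes 10.7% were higher and 10.1% lower, and that split over all genes turned with scaling. Among the called genes of the lists was Map1b, a protein of growing axons. It averaged 0.93 ± 0.25 in R-type and -0.24 ± 0.19 in S-type tumours, a log2 change of 1.17 (limma adjusted p = 4.72e-05). Its second probe gave -0.25 (limma adjusted p = 0.123), so the change was not read by both probes. Dclk1, a doublecortin-like kinase, was higher by 0.66 on its brightest probe (limma adjusted p = 0.00014), but its 5 other probes gave -0.45 to 0.37 and none of them passed. Map9, of the spindle, was lower by a log2 change of -0.64 (limma adjusted p = 0.000133), and its other probe gave -0.24, also called, as were 22.0% of all probes. The deglutamylase Agtpbp1 averaged 0.13 ± 0.16 in R-type and 0.97 ± 0.24 in S-type tumours (limma adjusted p = 0.000673), and the tubulin acetyltransferase Atat1 -2.13 ± 0.23 and -1.37 ± 0.20 in R-type and S-type tumours (limma adjusted p = 0.00367; SD, n = 6 each). For both enzymes the second probe was also called lower in R-type tumours. The tubulin tyrosine ligase Ttl, at -0.29, Tubg2, at 0.57, Arl2, at -0.22, Tbcel, at -0.16, Mzt2, at 0.21, Gsk3b, at -0.22, and Mark4, at -0.30, passed as well, and each of these 7 calls was lost under at least 1 alternative processing. The other 4 genes called lower were named after their values were seen. They were the doublecortin-like kinase Dclk2, at -0.49 (limma adjusted p = 0.00128), Ckap5, a microtubule polymerase, at -0.71 (limma adjusted p = 0.00148), Map6, which makes neuronal microtubules cold-stable, at -0.60, and Mapre2, at -0.55. Dclk2 had 1 probe, and the other probes of Ckap5 (-0.04), Map6 (-0.25 and -0.23) and Mapre2 (0.16) did not pass.

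Across the 12 tumours the 10 genes varied together with different partners. Likeness was measured by Pearson's r of log2 signal over the 12 tumours among 11454 other named genes above background in all of them. It is a description over tumours that share 4 slides and fall into types and doses, and the highest of so many values is high by selection. Tubb3 was most like Elavl3, an RNA-binding protein of neurons (r = 0.956), then Prkx and Nnat (0.912 each). Mapt was most like Cadm3, a neuronal adhesion molecule (0.955), Ankrd12 (0.949) and Adcy9 (0.941), all highest in MB2. Among the genes most like Tubb4a were Cyp51 (0.891) and Idh1 (0.846), genes of sterol synthesis and cytosolic NADPH supply, both lowest in MB1 and highest in MB3. Tubb2b was most like Carmil1, Parp6 and Edil3 (0.913, 0.887 and 0.877), all lowest in MB11, and Tubb2a like Cd24a, Nfib and Prr36 (0.877, 0.876 and 0.844). Map2 was most like Ptprd (0.943), Snx30 and Zfp57, all lowest in MB4 and highest in MB6. For Tubb5 (Zfp81, Elp6, Cd6), Tubb6 (Hmga2, Armc5, Pvr), Tuba1a (Cd63, Ntmt1, Zfp397) and Stmn1 (Celsr2, Suz12, Prr11) no r was above 0.873.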

How the data were processed

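The 12 tumours and 3 normal cerebella were each hybridised to 1 Cy3-labelled Agilent array on 4 slides, and their groups follow the labels (tissue, tumour type, dose). The deposited files hold linear spot intensities that the authors made with Feature Extraction 9.5.1 (Agilent; version per the submitters' processing notes), with background subtraction and no scaling between arrays, per the file headers. The deposited series table holds log2 values whose making is not stated. Set against the differences computed here, those of the table had r of 0.99987 to 0.99999 over probes; the MB1 and MB2 columns summed to 0 at every probe within 1e-06, and it was used as an alternative only; its centring on those 2 arrays was read from the values, and its scale before that is unknown. Column medians, normal cerebella first, were 0.00234, 0.0817 and 0.0889, then for the tumours in order 0.0506, -0.0506, 0.106, 0.0683, -0.0795, 0.0526, 0.0704, 0.130, 0.127, 0.0912, 0.152 and 0.0996.

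Processed signals were put on the log2 scale, less the 75th percentile of each array (1183.9 to 1611.1 units). Replicate spots were averaged; control spots were dropped, as were 76 probes with no spot free of a non-uniformity or population outlier mark on some array. Of the 41098 remaining probes, 24800 had 1 gene symbol through a RefSeq table of GRCm38.p6, and 16298 had none and kept their probe name. The brightest probe stood for a gene, and a probe without a symbol was counted as a gene of its own. The 22224 genes so counted that 3 or more arrays read well above background entered the fit, 13451 of them with a symbol. Per array, 59.13% to 66.52% of probes were well above background. The number of arrays limits the precision.

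The fit used limma 3.58.1 (R 4.3.3) on the means of all 5 groups (10 residual and 1.71 prior degrees of freedom), two-sided, at an adjusted p under 0.05 (Benjamini-Hochberg), after testing on simulated data; tables were made with Python 3.11.15 and scipy 1.17.1. Genes were named by rule: the 10 genes, up to 4 genes of each list with the smallest adjusted p between tumours and normal cerebella and up to 3 between types, and the 3 genes most like each of the 10, of which 1 is not reported here. The 8 function lists and 13 cell type lists, the genes and the tests were chosen with earlier results of these data known. Of the cell type lists not described in the report, 6 of 6 interneuron, 7 of 8 astrocyte and 2 of 2 blood markers were lower in tumours. Of 8 microglial markers 7 were higher, of 6 endothelial 3 were higher and 2 lower, of 4 lymphocyte 1 was higher and 2 lower, of 4 meningeal 2 were higher, and of 4 choroid plexus 1 was higher. The choroid plexus gene called higher, Aqp1, was not above background in any normal cerebellum. Samples are single mice as far as the labels tell, and p-values measure the spread between them.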

Additional observations from a re-analysis of the deposited data

How the results depend on the processing

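Across 24 alternative fits (background correction, scaling, filter, probe choice, slide as a block, the deposited table, each array left out in turn), 9 of the 10 genes remained called between tumours and normal cerebella, and among them only Tubb2a turned on another probe, to -0.87 on A_51_P490023. Removing the scaling shifted the median change of all genes by -0.17 between tumours and normal cerebella and by -0.22 between types. Without scaling 2753 genes were called between types at 0.2 Gy (161 higher, 2592 lower), against 1061 (438 higher, 623 lower) as reported; the counts were 666 with median scaling, 557 with no filter, 482 in a fit of the compared groups, 471 with slide as a block, and 304 to 1440 with 1 array left out (lowest without MB9). Over all doses the share of calls that were higher was 8.9% without scaling, 67.3% with normexp correction and 51.4% as reported, and at 0.2 Gy it was 59.7% with normexp correction. Between S-type doses the count was 4 with median scaling, 2 with quantile normalization, 0 with no filter, no scaling, the compared groups or the slide block, and 0 to 17 with 1 array left out (highest without MB1); between R-type doses it was 0 with median scaling or the compared groups and 9 to 162 with 1 array left out (highest without MB8). Between types the number of the 10 genes called was 0 with median scaling, no filter or the compared groups, 3 without scaling (Tubb3, Tubb6 and Stmn1), 2 with quantile normalization (Tubb3 and Stmn1), and 0 to 1 with 1 array left out (0 without MB3, MB7, MB9, MB11 or MB12). Signs of changes not called as reported turned between types for Tubb2a (0.023 with median scaling), Tubb4a (-0.15 without scaling), Tubb5 (-0.11 without scaling, -0.14 with quantile normalization), Tuba1a (-0.15 and -0.13), Map2 (-0.18 and -0.008) and Stmn1 (-0.21 and -0.21, both called; -0.055 with the mean of all probes, -0.003 with the slide block). With 1 array left out, the type difference was -0.094 to 0.017 for Tubb2a, -0.013 to 0.091 for Map2 and -0.043 to 0.050 for Stmn1. Map2 between tumours and normal cerebella was -0.018 with normexp, -0.15 without scaling, -0.095 with quantile normalization and -0.028 to 0.073 with 1 array left out. With the mean of all probes Tuba3a was -2.0 (tumours) and Dclk1 -0.011 (types), and Mzt2 was -0.006 (types) without scaling. Tubb5 minus Tubb4a was 0.03 between tumours and normal cerebella and -0.15 between types with quantile normalization, the second past the threshold; between types it was 0.03 to 0.09 with 1 array left out, and Tubb2b minus Tubb2a was -0.32 to -0.13. Between tumours and normal cerebella, changes of over 1.5 times were also seen for Tubb2b minus Tubb2a (1.21 with quantile normalization), Ttc5 (0.42 with the mean of all probes), Mark4 (-0.34 with normexp), and Mark3 and Mzt2 (0.31 and 0.33 without scaling). The cause of these shifts was not tested. Replicate numbers are shared only by MB1 to MB3, at ages of 160, 173 and 172, and the normal cerebella, at 103, 103 and 113. Their same-numbered deviations correlated at 0.044, -0.0263 and -0.0022, which by itself cannot exclude pairing. Beyond the number nothing in the labels pairs these arrays, so no pairing was fitted. With the replicate block 14659 genes were called there, against 16478 without.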

Other observations

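Genes of the tyrosination cycle of alpha tubulin moved in different directions in tumours; these and the genes below were chosen after their values were seen. The vasohibins Vash2 and Vash1, which remove the terminal tyrosine, averaged -3.05 ± 0.43 and -1.70 ± 0.18 on the log2 scale in tumours, against -5.43 ± 0.28 and -2.82 ± 0.12 in normal cerebella (SD, n = 12 and 3), by limma adjusted p of 3.98e-07 and 1.19e-06; Vash2 was well above background in 2 of the 3 normal cerebella. Their binding partner Svbp was also higher, by 1.28 (limma adjusted p = 1.11e-08). Ttl, the ligase that restores the tyrosine, averaged 0.30 ± 0.19 in tumours and 1.06 ± 0.10 in normal cerebella, a log2 change of -0.76 (limma adjusted p = 2.84e-06). The values of these 4 genes did not overlap between the tissues, as was so for 65.5% of all genes. Vash2, a dim gene, changed by 1.38 with normexp correction and 1.32 with the mean of its probes, in place of 2.38.

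The end-binding proteins, which track growing microtubule tips, also parted. Mapre1 was 3.05-fold higher in tumours, while Mapre2 averaged 2.68 ± 0.36 in tumours and 5.74 ± 0.14 in normal cerebella, and Mapre3 averaged -2.13 ± 0.30 in tumours and 0.88 ± 0.05 in normal cerebella (limma adjusted p = 8.10e-10 and 1.78e-08). The 3 Mapre1 probes gave 1.58 to 1.71 and the 2 Mapre2 probes -3.06 and -1.03. Map1a, an axonal and dendritic protein of mature neurons, was lower on each of its 4 probes, by log2 changes of -3.90 to -2.47, and Tppp, known from oligodendrocytes, by -4.80 (limma adjusted p = 1.04e-08).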
